A study of Mus musculus with 12 samples.

Results

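The genes described here are 10 genes of ferroptosis execution and lipid peroxide defence: Acsl4, Acsl3, Lpcat3, Por, Cyb5r1, Pebp1, Gpx4, Aifm2, Dhodh and Gch1. They were listed by name, by a rule that used no measured value although earlier results of these data were known, from the 55487 genes listed in the files, and all 10 were among the 13535 genes that passed the filter on low counts. RNA sequencing was done on primary mouse hepatocytes, the parenchymal cells of the liver, in 4 groups of 3 libraries. The comparisons ask how FAC, a treatment whose abbreviation the labels leave unexpanded, changes these transcripts, and what a scavenger of reactive oxygen species (ROS) given beforehand does to them. Control cells had neither a scavenger nor FAC. The FAC group had FAC alone. The Lip-1+FAC group had liproxstatin-1, which traps lipid ROS, and the MT+FAC group had Mito-TEMPO, which is targeted to mitochondrial ROS. Both scavengers were given on day 2 of culture, ahead of FAC. No group had a scavenger without FAC, so the effect of a scavenger by itself was not measured. The sources used here give no strain, sex, age, genotype, dose or duration of FAC. They do not say whether the replicates came from separate animals or cultures, so p-values measure the spread between these libraries, which may be technical.

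Ferroptosis is a form of cell death in which iron catalyses the peroxidation of polyunsaturated fatty acids held in membrane phospholipids. Long-chain acyl-CoA synthetases and a lysophospholipid acyltransferase load such fatty acids into membranes, oxidoreductases that pass electrons from NADPH can feed the peroxidation, and several enzymes stop it, either by reducing the lipid peroxide or by regenerating radical-trapping quinols and pterins. Hepatocytes store much of the body's iron and hold abundant cytochrome P450 reductase.

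Among the 10 genes, Gpx4 and Pebp1 have near-identical copies elsewhere in the genome, which limits how reads can be assigned to them. Gpx4 encodes glutathione peroxidase 4, the selenoprotein that reduces phospholipid hydroperoxides. A stretch of its coding sequence (bases 356 to 415 of 759, longest annotated transcript, GRCm38, GENCODE M21) is shown with the same stretch of the pseudogene Gpx4-ps2, because it holds the selenocysteine codon and because reads from it can be told apart by a single base. Capitals mark that base and the in-frame TGA, codon 129 of this transcript, which is read as selenocysteine and not as a stop.
Gpx4: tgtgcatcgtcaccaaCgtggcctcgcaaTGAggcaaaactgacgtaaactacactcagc
Gpx4-ps2: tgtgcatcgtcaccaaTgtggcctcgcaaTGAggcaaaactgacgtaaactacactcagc
The pseudogene matched Gpx4 at 99.7% over 733 aligned bases, with 2 differing positions in all. Pebp1, which encodes a phosphatidylethanolamine-binding protein, has a comparable copy in Gm10819, with 5 differing positions over 564 aligned columns. The stretch below (bases 461 to 520 of the 561 coding bases) holds 1 of them, marked in capitals.
Pebp1: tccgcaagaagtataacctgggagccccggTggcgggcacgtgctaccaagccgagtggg
Gm10819: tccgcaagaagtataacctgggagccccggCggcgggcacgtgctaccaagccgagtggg

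Reads counted to Gpx4-ps2 came to between 2.88% and 6.39% of those counted to Gpx4, or 282 to 600 reads a library. FAC replicate 1 stood out with 21.9 CPM (counts scaled to library size) for the pseudogene, against 11.4 and 11.5 in the other FAC libraries. A further, less similar copy of Gpx4, AC122253.3 (95.1% identity over 510 aligned bases), held 0 to 11 reads a library. Gm10819 held 8 to 35 reads a library and a further copy of Pebp1, Gm9824, held 4 to 42. Gm9824 was lower than in FAC in Lip-1+FAC by a log2 change of -1.58 (edgeR adjusted p = 0.0359) and in MT+FAC by -1.47 (edgeR adjusted p = 0.045), at levels of at most 1.53 CPM. Adding the copies to Gpx4 and Pebp1 changed none of the calls described below, and the value of Gpx4 in Lip-1+FAC against FAC moved from 0.23 to 0.21. Reads that map to several places are listed apart from the gene counts, so those shared by a gene and its copy are missing from both. Exons of Lpcat3 overlap those of Emg1 over 10.22% of their length, Aifm2 overlaps H2afy2 over 5.65% and Acsl3 overlaps Utp14b over 5.60%. The counts carry no strand, so shared reads in those overlaps cannot be split.

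Gene-assigned reads numbered 22991598 to 31683376 per library, except in FAC replicate 2, whose file is marked as combined and which held 52529278. Of the 10 genes, the fewest reads in any library were 659, for Dhodh. Hepatocyte markers (10 of 10 detected) summed to 17338.1 to 18207.4 CPM over the control and FAC libraries, 13986.6 to 15054.4 in Lip-1+FAC and 14325.9 to 15664.1 in MT+FAC, with Alb the largest part; 2 were called higher and 2 lower with FAC, and 1 higher and 6 lower against FAC with either scavenger. Against control 1 was higher and 9 lower in Lip-1+FAC, and 1 higher and 7 lower in MT+FAC. Cps1 averaged 1695.4 CPM in control, 711.4 in FAC and 1034.5 in Lip-1+FAC, and Apob 720.3 in control and 949.2 in FAC. The macrophage list (7 of 8 tested) drew nearly all of its sum from Cd68. It gave 290 to 322 CPM with FAC alone, 224 to 255 in control and 117 to 175 over the scavenger groups. Its members differed: with FAC 1 was called higher and 1 lower. Against FAC, 1 was called lower with either scavenger, and 1 higher with Mito-TEMPO only. The Kupffer cell marker Clec4f did not exceed 1.5 CPM. Its mean was 0.5 CPM with FAC alone, against 1.1 in control, 0.907 with liproxstatin-1 and 1.17 with Mito-TEMPO. Endothelial markers (6 of 7 tested) summed to 34.2 to 37.1 CPM without a scavenger and 26.6 to 30.8 with one, mostly from Stab2 (means of 26.5 CPM in FAC and 17.9 and 19.2 with the scavengers); 1 was called lower and 1 higher against FAC with either. Stellate markers (6 of 8 tested) summed to 28.6 to 36.7 CPM with FAC alone, 19.1 to 26.1 in control and 12.7 to 19.1 over the scavenger groups, mostly from Reln and Acta2; with FAC 1 was called higher and 1 lower, and Dcn averaged 3.55 CPM in control and 2.34 in FAC. Cholangiocyte markers (5 of 5 tested) summed to 98.4 to 123 CPM with FAC alone, 58.6 to 68.9 in control and 104 to 145 over the scavenger groups, but the members differed: 4 were called higher and 0 lower with FAC, and against FAC 4 were called lower and 1 higher with either scavenger. Krt19 averaged 3.96 CPM in control, 9.96 with FAC alone, 1.58 with liproxstatin-1 and 2.70 with Mito-TEMPO, while Spp1, most of the sum with a scavenger, averaged 40.7, 43.6, 101.4 and 102.6. The leukocyte list stayed under 0.44 CPM with Cd3e and Nkg7 at 0. The assigned share of all reads was 78.0% to 79.8% in control, 75.8% to 77.8% in FAC and 80.4% to 81.2% with a scavenger, and reads outside annotated features 2.92% to 3.14% in FAC and 2.27% to 2.56% in all other libraries. The share of mitochondrially encoded counts was 0.954% to 1.23% without a scavenger and 0.639% to 0.798% with one. The part of these shifts in the results below was not tested. In bulk RNA, fewer cells of a type and less RNA per cell cannot be told apart.

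Per kilobase of annotated exon, the 10 genes spanned a wide range in control cells. This length joins the exons of all annotated transcripts of a gene. It was 1724 bases for Gpx4, whose longest coding transcript has 995, and 4357 for Acsl3, whose longest has 3950. The order of the genes given here depends on that choice of length. Gpx4 was highest at 222 ± 15.3 RPKM (CPM per kilobase of exon, mean ± SD, n = 3), followed by Por at 206 ± 10.5, and the difference between the means was smaller than the sum of their SDs. Pebp1 stood at 98.0 ± 6.05 RPKM. Gch1 at 41.0 ± 3.64 and Lpcat3 at 39.2 ± 2.25 could not be ordered beyond their spread, nor could Acsl4 at 17.4 ± 0.829 and Aifm2 at 16.4 ± 0.854. Acsl3 (11.1 ± 0.397), Cyb5r1 (9.30 ± 0.647) and Dhodh (5.24 ± 0.370) were lowest. In FAC cells Por moved above Gpx4, at 271 ± 21.6 against 207 ± 8.20 RPKM, and Acsl3 at 15.4 ± 0.389 moved above Aifm2 at 11.7 ± 0.594. In both scavenger groups Gpx4 was again above Por, at 242 ± 22.3 against 153 ± 6.87 RPKM in Lip-1+FAC and 225 ± 6.45 against 160 ± 14.5 in MT+FAC.

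**Figure D1:**
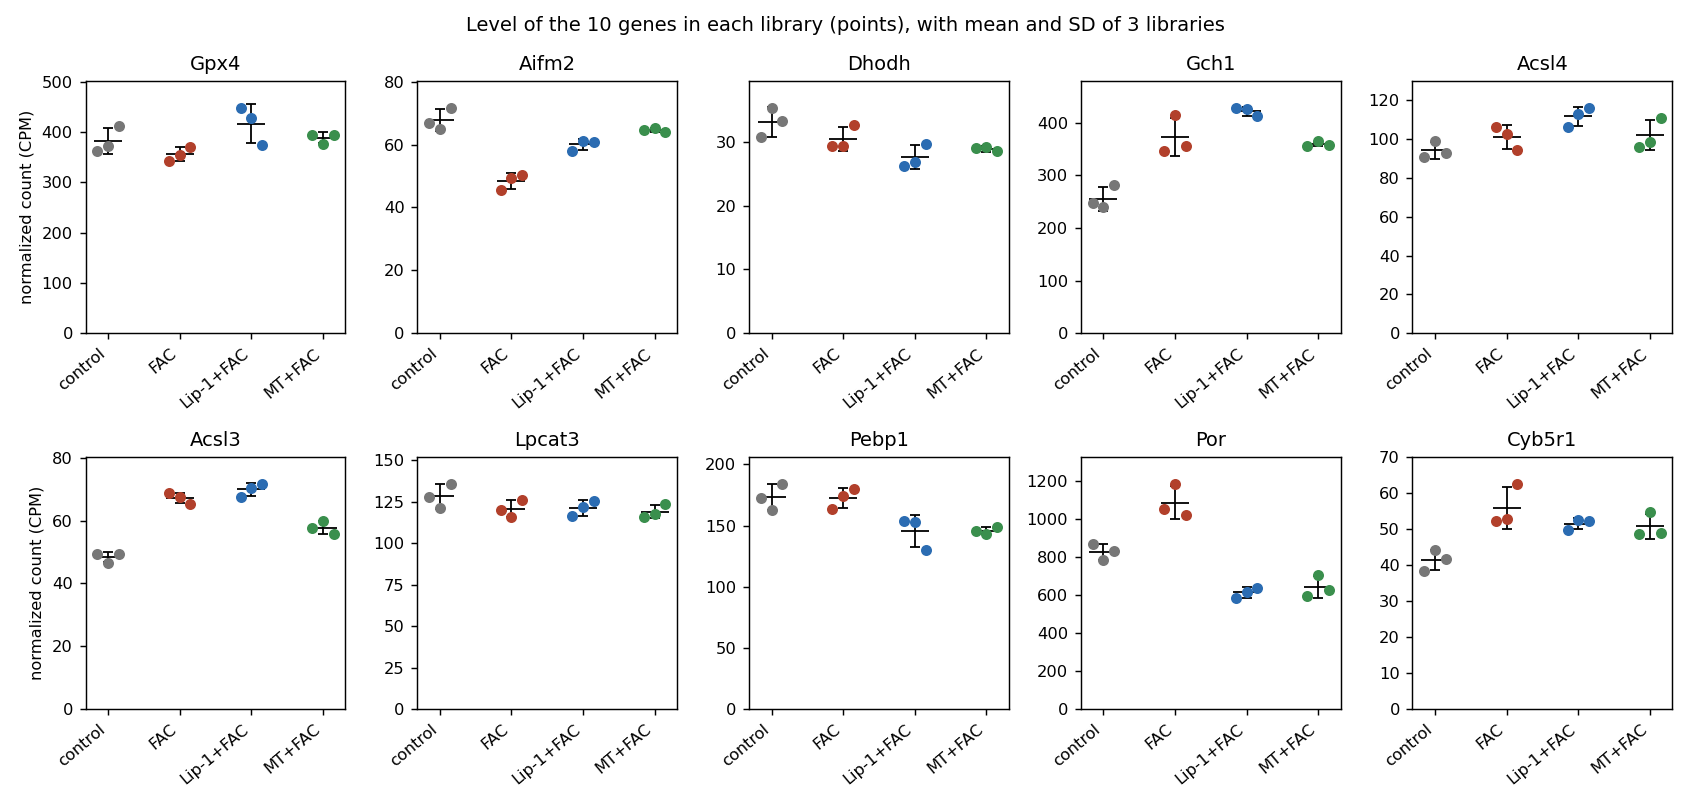
Normalized count (CPM, vertical axis from 0) of each of the 10 genes in the 12 libraries, 1 point a library, with black bars for the mean and SD of the 3 libraries of each group. The FAC libraries of Aifm2 (45.6 to 50.2 CPM) lie below all other libraries of that gene, and those of Por (1024.7 to 1186.7 CPM) above all others.

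FAC raised Acsl3, Gch1, Por and Cyb5r1 and lowered Aifm2. These 5 of 10 genes were called (edgeR quasi-likelihood test, Benjamini-Hochberg adjusted p under 0.05 over all genes tested), where 36.6% of all genes were, so the count is read against a broad response. Of all genes 17.5% were called higher and 19.1% lower, beside 4 and 1 of the 10. The groups did not overlap for the same number of members, 5 of 10, against 46.2% of all genes. Their median log2 fold change was 0.05, beside -0.006 over all genes tested. Gpx4, Acsl4, Lpcat3, Dhodh and Pebp1 were not called.

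Against FAC alone, liproxstatin-1 pretreatment raised Gpx4, Aifm2 and Gch1 and lowered Por and Pebp1, again 5 of 10 where 39.9% of all genes were called (20.7% higher and 19.2% lower). Mito-TEMPO pretreatment raised Aifm2 and lowered Por, Pebp1 and Acsl3, 4 of 10 where 40.9% of all genes were called (21.2% higher and 19.7% lower). Groups were apart for 5 genes in the first comparison (50.8% of all genes) and 6 in the second (52.9%). The median change of the 10 was 0.03 and -0.06 on the log2 scale, beside 0.001 and -0.001 over all genes. Both comparisons use the FAC libraries that also serve in FAC against control, so a gene that happened to read high or low in those libraries would show opposite signs in them.

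Set against control, Lip-1+FAC cells had 4 genes higher (Acsl4, Acsl3, Gch1 and Cyb5r1) and 4 lower (Aifm2, Dhodh, Pebp1 and Por), 8 of 10 where 30.2% of all genes were called (15.4% higher and 14.8% lower). Without control replicate 3 that count was 5. MT+FAC cells had 3 higher (Acsl3, Gch1 and Cyb5r1) and 2 lower (Pebp1 and Por), 5 of 10 where 19.8% of all genes were called (9.71% higher and 10.1% lower), and 3 without MT+FAC replicate 2. Groups were apart for 8 genes (43.3% of all genes) and 6 genes (38.2%). Between the 2 scavengers, Acsl3 was the only gene of the 10 called, in the lower direction, where 1.34% of all genes were (0.465% higher and 0.879% lower), and 3 genes had groups apart (19.8% of all genes).

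**Figure D2:**
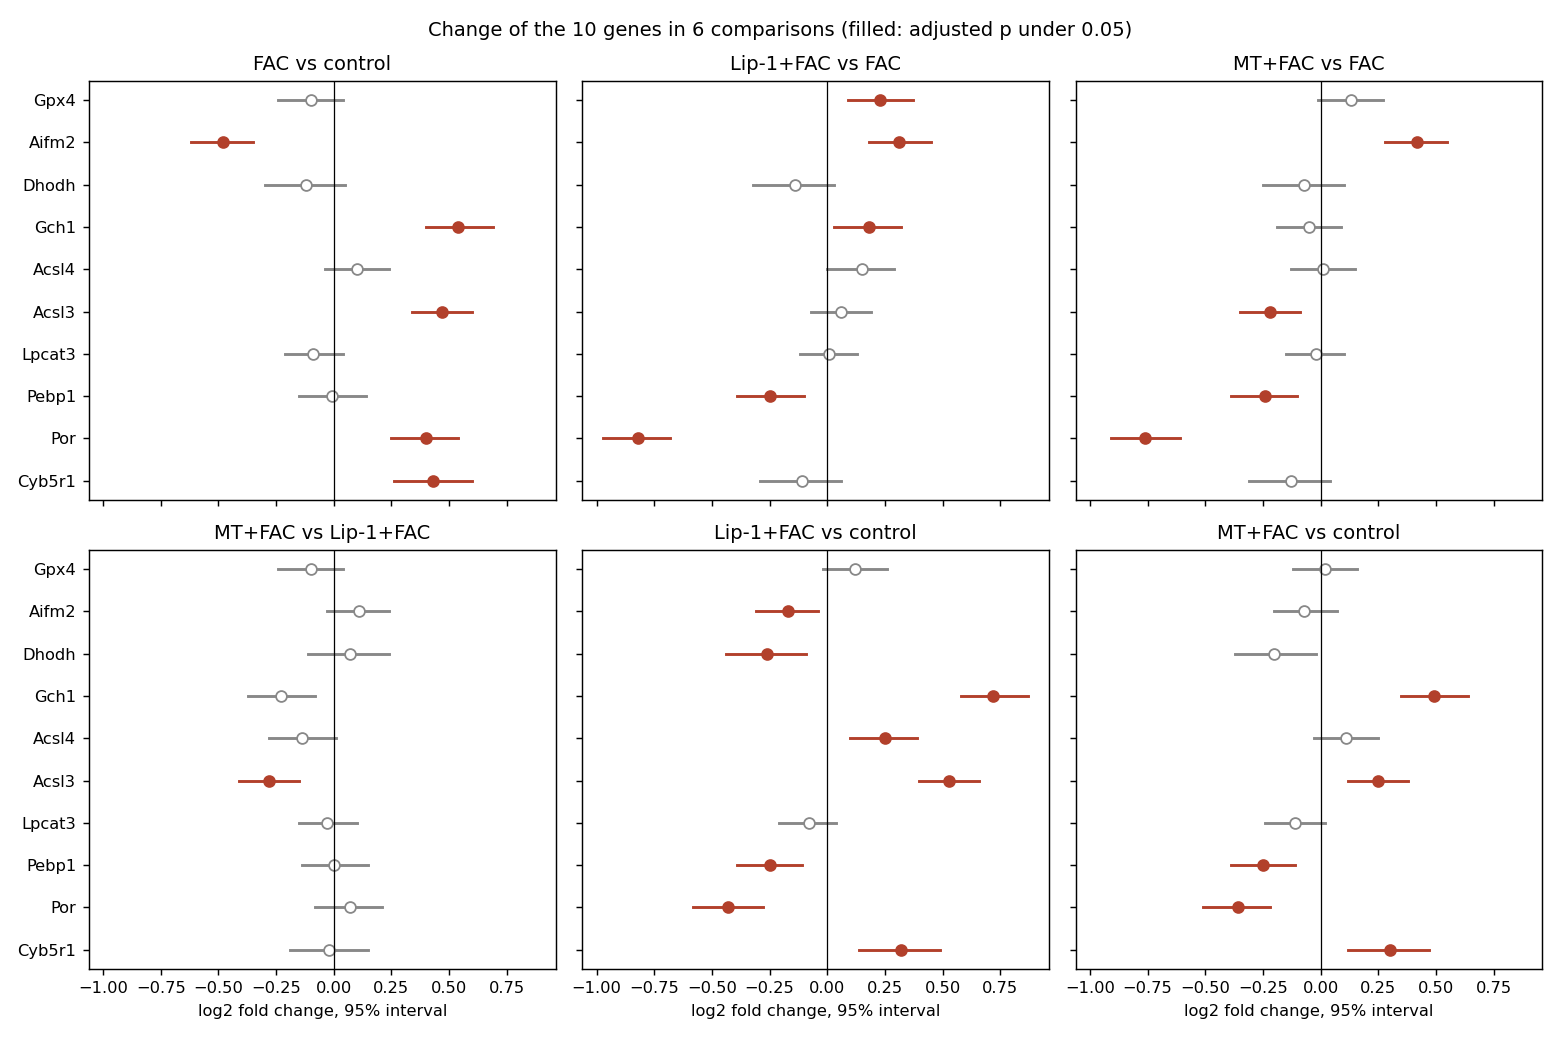
Log2 fold change (horizontal axis) of the 10 genes in 6 comparisons, with 95% intervals from the edgeR fit; filled red points have an adjusted p under 0.05. Por lies at 0.40 in FAC against control and at -0.82 and -0.76 in the scavenger groups against FAC, and Lpcat3 lies near 0 in every panel.

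Acsl4 (ENSMUSG00000031278, chrX:142317993-142390535) encodes the acyl-CoA synthetase that prefers arachidonic and adrenic acid and so supplies the fatty acids that peroxidise. It read 90.6, 99.2 and 92.8 CPM in control replicates 1 to 3 and 106, 103 and 94.1 in FAC. With a scavenger it read 106, 113 and 116 in Lip-1+FAC and 96.1, 98.6 and 111 in MT+FAC. The FAC libraries overlapped those of control and of MT+FAC, and the Lip-1+FAC libraries were all above control. Acsl4 was not called in FAC against control, at a log2 change of 0.10 (95% interval -0.04 to 0.24), nor in Lip-1+FAC against FAC, at 0.15 (0.00 to 0.29, edgeR adjusted p = 0.0966), a value of 0.00047 with offsets for GC content and length. It was higher in Lip-1+FAC than in control by 0.25 (SE 0.0683, edgeR adjusted p = 0.011), a call lost at 0.16 with the same offsets (edgeR adjusted p = 0.0873).

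Acsl3 (ENSMUSG00000032883, chr1:78657825-78707743) encodes a synthetase that activates monounsaturated fatty acids and is known to protect against ferroptosis. Its level was 49.4, 46.4 and 49.4 CPM in control and 68.6, 67.6 and 65.3 in FAC. Lip-1+FAC libraries held 67.6, 70.5 and 71.7 CPM and MT+FAC libraries 57.6, 59.8 and 55.6. The MT+FAC libraries thus lay between control and FAC, overlapping neither, while FAC and Lip-1+FAC overlapped. FAC raised Acsl3 by 0.47 on the log2 scale (SE 0.0617, edgeR adjusted p = 1.15e-05), or 38.8%. In Lip-1+FAC against FAC the change was 0.06 (95% interval -0.07 to 0.19), and Mito-TEMPO lowered it by -0.22 (SE 0.0611, edgeR adjusted p = 0.00826). The direct comparison of the scavengers gave -0.28 (SE 0.0613, edgeR adjusted p = 0.0309), with all 3 MT+FAC libraries below all 3 Lip-1+FAC libraries. That last call was lost when any of the 6 libraries compared other than MT+FAC replicate 2 was left out, at -0.25 to -0.30. Both groups remained above control, by 0.53 and 0.25.

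Lpcat3 (ENSMUSG00000004270, chr6:124663027-124704418) encodes the acyltransferase that inserts polyunsaturated acyl chains into lysophospholipids. It was the steadiest of the 10, with group means from 119 ± 4.04 CPM in MT+FAC to 128 ± 7.34 in control and overlapping groups in all 6 comparisons. Control libraries read 128, 121 and 136 CPM and FAC libraries 120, 116 and 126. The change with FAC was -0.09 (95% interval -0.21 to 0.04). The changes against FAC were 0.01 (-0.12 to 0.13) in Lip-1+FAC and -0.02 (-0.15 to 0.10) in MT+FAC.

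Of the oxidoreductases, Por (ENSMUSG00000005514, chr5:135670033-135735326) encodes NADPH-cytochrome P450 reductase, the electron donor of microsomal P450 enzymes and a known driver of phospholipid peroxidation. Control libraries held 868, 784 and 830 CPM and FAC libraries 1052.1, 1186.7 and 1024.7. Levels fell to 585, 618 and 640 CPM in Lip-1+FAC and 594, 708 and 627 in MT+FAC. Every FAC library was above every control library, and every library with a scavenger was below every control library. Por had the largest changes of the 10 genes in both scavenger comparisons. FAC raised it by 0.40 (SE 0.0706, edgeR adjusted p = 0.000272), or 31.5%. Relative to FAC it fell by 43.5% with liproxstatin-1, a log2 change of -0.82 (SE 0.071, edgeR adjusted p = 9.53e-08), and by 40.9% with Mito-TEMPO, -0.76 (SE 0.0709, edgeR adjusted p = 3.37e-07). The scavengers differed by 0.07 (95% interval -0.08 to 0.21). Por lay under control by -0.43 (edgeR adjusted p = 0.000169) in Lip-1+FAC and -0.36 (edgeR adjusted p = 0.0016) in MT+FAC. All 5 calls held under every alternative processing, though the first of the differences from control shrank to -0.28 with GC and length offsets.

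Cyb5r1 (ENSMUSG00000026456, chr1:134405559-134411740) encodes an NADH-cytochrome b5 reductase that, with Por, has been tied to lipid peroxidation in ferroptosis. It held 38.3, 44.0 and 41.5 CPM in control and 52.1, 52.6 and 62.5 in FAC. Lip-1+FAC libraries read 49.7, 52.4 and 52.2 CPM and MT+FAC libraries 48.6, 54.7 and 48.7. All treated libraries were above all control libraries and overlapped one another. FAC raised Cyb5r1 by 0.43 (SE 0.0827, edgeR adjusted p = 0.000518). In contrast to Por, it was not called against FAC in either scavenger group, at -0.11 (95% interval -0.29 to 0.06) and -0.13 (-0.31 to 0.04), or -0.02 and -0.04 without FAC replicate 3, and the difference between the 2 genes was not tested. It was above control by 0.32 in Lip-1+FAC (edgeR adjusted p = 0.00773) and by 0.30 in MT+FAC (edgeR adjusted p = 0.0174). The latter was lost without control replicate 1 (0.25) or MT+FAC replicate 2 (0.24). Within a library, the log2 ratio of Por to Cyb5r1 counts was 4.15 to 4.50 in control and 4.04 to 4.50 in FAC, and 3.56 to 3.69 over the 6 libraries with a scavenger.

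Pebp1 (ENSMUSG00000032959, chr5:117282654-117287625) encodes a scaffold that binds lipoxygenases and directs them to membrane phosphatidylethanolamine. It read 173, 163 and 184 CPM in control and 164, 174 and 180 in FAC, which overlapped. Lip-1+FAC libraries held 154, 153 and 130 CPM and MT+FAC libraries 145.3, 143.4 and 148.9, all below the control and FAC libraries. The change with FAC was -0.01 (95% interval -0.15 to 0.14). Relative to FAC, Pebp1 fell by 15.6% in Lip-1+FAC, -0.25 (SE 0.0676, edgeR adjusted p = 0.00769), and by 15.5% in MT+FAC, -0.24 (SE 0.0676, edgeR adjusted p = 0.00806). Against control, the changes were -0.25 (edgeR adjusted p = 0.00931) and -0.25 (edgeR adjusted p = 0.0149). Pebp1 has a GC content of 56.5%, and all 4 of these calls were lost with offsets for GC content and length, at -0.03 and -0.10 against FAC and -0.02 and -0.09 against control. Without Lip-1+FAC replicate 3 the Lip-1+FAC values were both -0.17 and not called, without control replicate 3 both values against control were -0.20 and not called, and without MT+FAC replicate 2 MT+FAC against control was -0.23 and not called. Lipoxygenase transcripts were scarce: Alox5, Alox12 and Alox15 each had at most 9 reads in a library, and Aloxe3 had 2 to 53 and was not called in any comparison. Alox8 had none in any library, which puts an upper 95% limit of about 3 on the expected reads a library.

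Among the defence genes, Gpx4 (ENSMUSG00000075706, chr10:80047166-80056439) read 362, 373 and 412 CPM in control and 343, 354 and 371 in FAC. It read 448, 429 and 374 CPM in Lip-1+FAC and 395, 376 and 395 in MT+FAC. FAC and control overlapped, and all 6 libraries with a scavenger were above all FAC libraries, the nearest, Lip-1+FAC replicate 3 at 374, by a small margin over FAC replicate 3 at 371. The change with FAC was -0.10 (95% interval -0.24 to 0.04). Liproxstatin-1 raised Gpx4 over FAC by 0.23 (SE 0.0668, edgeR adjusted p = 0.0113), or 17.1%, whereas the value with Mito-TEMPO, 0.13 (-0.01 to 0.27), was not called. The scavengers differed by -0.10 (-0.24 to 0.04). The Lip-1+FAC call was lost without Lip-1+FAC replicate 1, at 0.18 (edgeR adjusted p = 0.0631). Without Lip-1+FAC replicate 3, the value against control rose from 0.12 to 0.20 and was called (edgeR adjusted p = 0.0298).

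Gpx4 has the highest GC content of the 10, at 60.2%, and the shortest exon length, at 1724 bases. When GC content and length were fitted as offsets, its values moved more than those of the other 9 genes in the 4 comparisons of a scavenger group with FAC or control, and less than those of Acsl3 and Lpcat3 in FAC against control. With them, FAC lowered Gpx4 by -0.16 (edgeR adjusted p = 0.0216), and the scavengers raised it over FAC by 0.56 (edgeR adjusted p = 1.18e-07) and 0.37 (edgeR adjusted p = 2.12e-05). Both groups were then also above control, by 0.40 (edgeR adjusted p = 1.59e-05) and 0.21 (edgeR adjusted p = 0.0117). The sign of Gpx4 was the same with and without offsets in each of these 5 comparisons, and the size of its change depended on that setting.

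**Figure D3:**
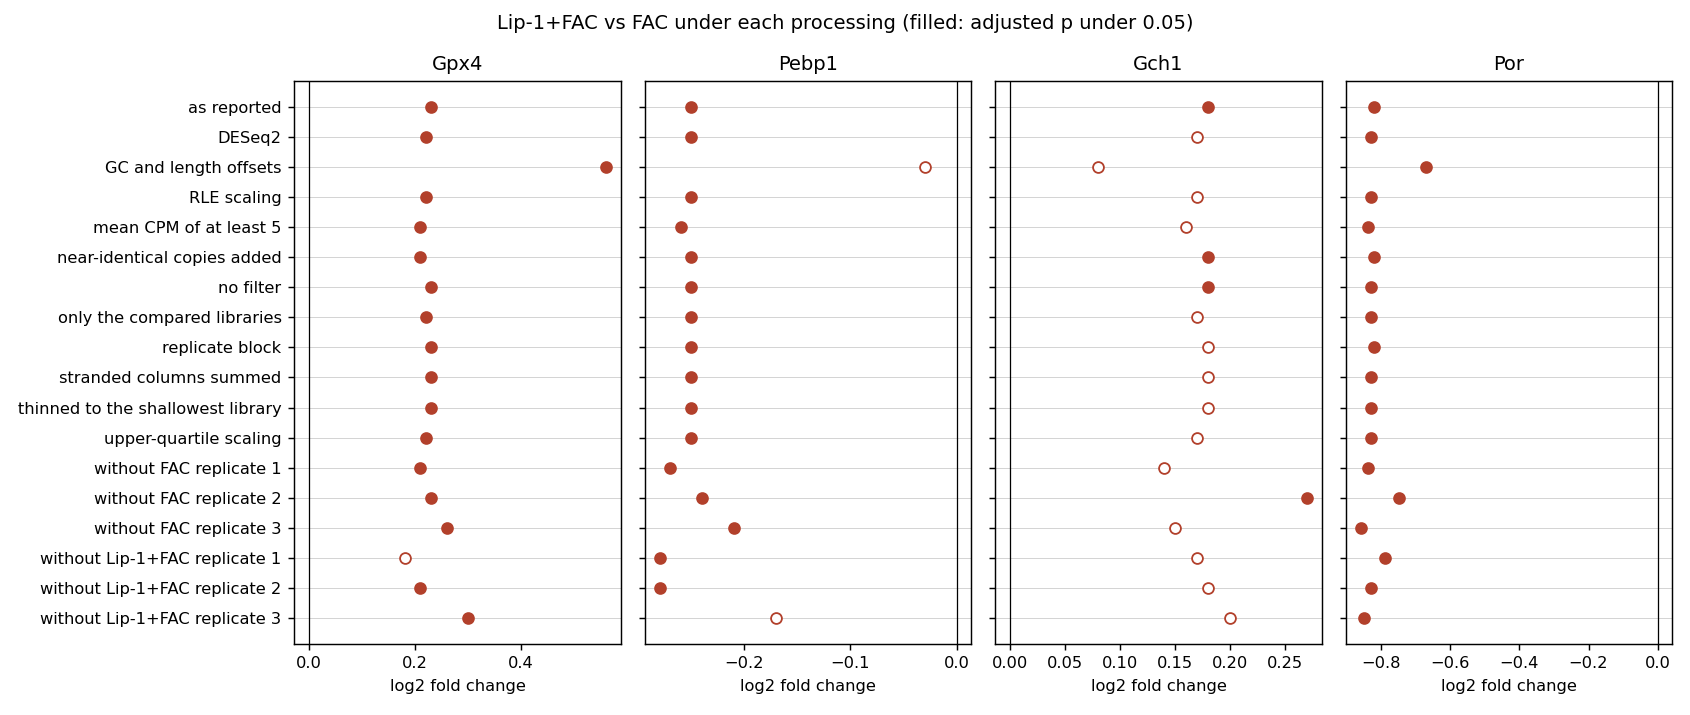
Log2 fold change (horizontal axis) of Gpx4, Pebp1, Gch1 and Por in Lip-1+FAC against FAC under each way of processing (vertical axis); filled points have an adjusted p under 0.05. With GC and length offsets Gpx4 moves from 0.23 to 0.56 and Pebp1 from -0.25 to -0.03, and Por stays called under each.

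Aifm2 (ENSMUSG00000020085, chr10:61715263-61739260) encodes ferroptosis suppressor protein 1, which reduces coenzyme Q and vitamin K at membranes so that they trap lipid radicals. Control libraries held 66.8, 64.8 and 71.6 CPM and FAC libraries 45.6, 49.4 and 50.2. It stood at 58.0, 61.2 and 60.9 CPM in Lip-1+FAC and 64.7, 65.4 and 64.1 in MT+FAC. FAC libraries were the lowest of all, MT+FAC overlapped control, and Lip-1+FAC lay between FAC and the other groups without overlap. FAC lowered Aifm2 by 28.5%, a log2 change of -0.48 (SE 0.0643, edgeR adjusted p = 1.38e-05). Relative to FAC it was higher by 0.31 with liproxstatin-1 (SE 0.0643, edgeR adjusted p = 0.000875) and by 0.42 with Mito-TEMPO (SE 0.0641, edgeR adjusted p = 5.68e-05). These 3 calls held under every alternative. The scavengers differed by 0.11 (95% interval -0.03 to 0.24), a difference that was not called. Lip-1+FAC was below control by -0.17 (edgeR adjusted p = 0.0486), a call lost under 12 alternatives with values of -0.08 to -0.18, among them the omission of control replicate 1 (-0.18) or 3 (-0.13) or of any 1 Lip-1+FAC library (-0.14, -0.18 and -0.18). MT+FAC differed from control by -0.07 (-0.20 to 0.07).

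Dhodh (ENSMUSG00000031730, chr8:109591343-109608673) encodes dihydroorotate dehydrogenase, the pyrimidine synthesis enzyme of the inner mitochondrial membrane that reduces coenzyme Q there. It was the least abundant of the 10, at 30.7, 35.3 and 33.3 CPM in control and 29.4, 29.4 and 32.6 in FAC. Lip-1+FAC libraries read 26.2, 26.9 and 29.7 CPM and MT+FAC libraries 29.1, 29.2 and 28.5. The change with FAC was -0.12 (95% interval -0.30 to 0.05), and those against FAC were -0.14 (-0.32 to 0.03) and -0.07 (-0.25 to 0.10). Both scavenger groups lay below all control libraries. Lip-1+FAC was lower than control by -0.26 (SE 0.083, edgeR adjusted p = 0.0222), and MT+FAC was at -0.20 (-0.37 to -0.02, edgeR adjusted p = 0.105). The first call was lost without control replicate 2 (-0.21) or 3 (-0.26), without Lip-1+FAC replicate 1 (-0.22) or 2 (-0.24), and with no filter on low counts (-0.25). With GC and length offsets the second was called, at -0.26 (edgeR adjusted p = 0.0236).

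Gch1 (ENSMUSG00000037580, chr14:47153895-47189413) encodes GTP cyclohydrolase 1, the rate-limiting enzyme of tetrahydrobiopterin synthesis, a pterin that traps lipid radicals. It held 247, 239 and 282 CPM in control and 347, 415 and 356 in FAC. Lip-1+FAC libraries read 428, 426 and 413 CPM and MT+FAC libraries 357, 365 and 359. All treated libraries were above all control libraries, and FAC replicate 2 lay within the range of Lip-1+FAC. FAC raised Gch1 by 45.6%, a log2 change of 0.54 (SE 0.0692, edgeR adjusted p = 9.32e-06). It was above control by 0.72 in Lip-1+FAC (SE 0.0694, edgeR adjusted p = 5.85e-07), the largest rise of any of the 10 genes in the 6 comparisons, and by 0.49 in MT+FAC (SE 0.0693, edgeR adjusted p = 9.7e-05). Over FAC it rose by 0.18 in Lip-1+FAC (SE 0.0689, edgeR adjusted p = 0.0461). That call was lost under 14 alternatives, with values of 0.08 to 0.20, including the omission of FAC replicate 1 (0.14) or 3 (0.15) and of any 1 Lip-1+FAC library (0.17, 0.18 and 0.20), and the value was 0.27 without FAC replicate 2. MT+FAC against FAC gave -0.05 (95% interval -0.19 to 0.09). MT+FAC libraries were all below Lip-1+FAC libraries, at -0.23 (SE 0.0689, edgeR adjusted p = 0.112), which was called in 2 of the alternatives, with no filter (-0.22) and with the compared libraries alone (-0.23).

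Within libraries the balance between members shifted. The log2 ratio of Gch1 to Aifm2 counts was 1.92 ± 0.0525 (SD, n = 3) in control cells and 2.94 ± 0.122 with FAC alone, and with the scavengers 2.81 ± 0.0632 (Lip-1+FAC) and 2.48 ± 0.0122 (MT+FAC). MT+FAC lay apart from all other groups in this ratio, whereas the FAC range (2.83 to 3.07) met that of Lip-1+FAC (2.76 to 2.88). The log2 ratio of Acsl4, which activates polyunsaturated fatty acids, to Acsl3, which activates monounsaturated ones, was 0.96 ± 0.119 in control and 0.59 ± 0.0521 in FAC, without overlap. With liproxstatin-1 it was 0.68 ± 0.0194 and with Mito-TEMPO 0.82 ± 0.152, and the latter overlapped control. These ratios follow from the values above and are given without a test.

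The wider pathway was described with a list of 85 related genes in 10 roles, of which 84 were found in the annotation and 74 passed the filter. FAC lowered 29 of the 74 and raised 9, with a median log2 fold change of -0.14 beside -0.006 over all genes. Liproxstatin-1 raised 31 over FAC and lowered 6 (median 0.12, beside 0.001), and Mito-TEMPO raised 30 and lowered 9 (median 0.14, beside -0.001). Against control, 16 were higher and 11 lower in Lip-1+FAC (median 0.02, beside -0.020), and 11 higher and 10 lower in MT+FAC (median 0.00, beside -0.001). As with the members, these counts stand beside 36.6%, 39.9%, 40.9%, 30.2% and 19.8% of all genes called.

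**Figure D4:**
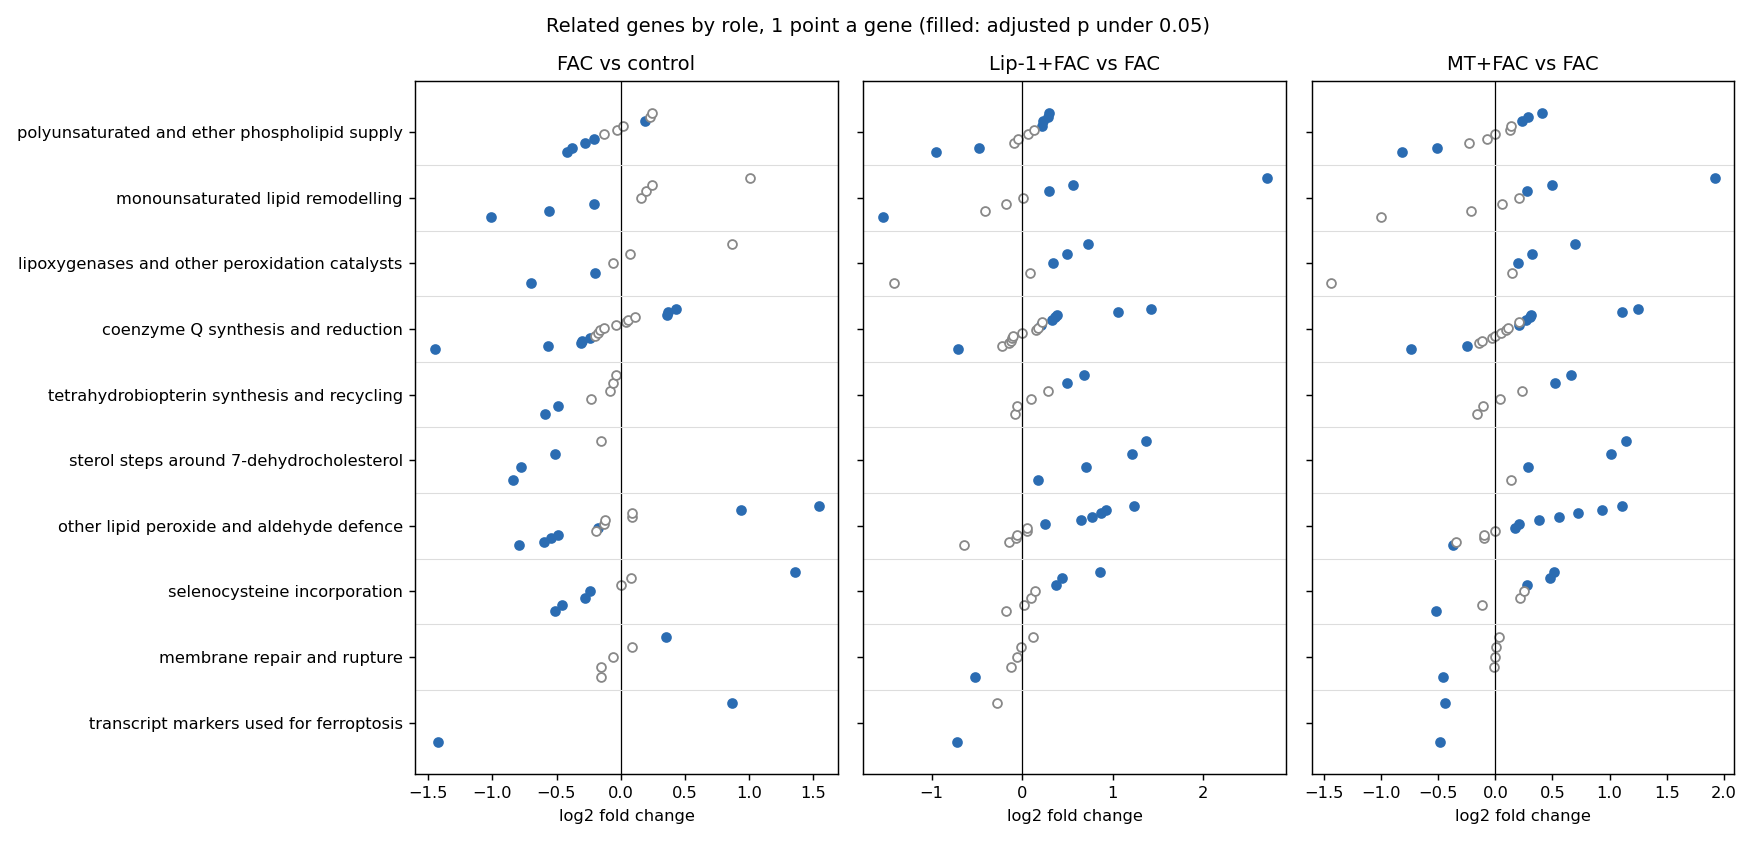
Log2 fold change (horizontal axis, scale differing between panels) of the 74 tested related genes, 1 point a gene, grouped by role, in FAC against control and in each scavenger group against FAC; filled points have an adjusted p under 0.05. The 4 sterol genes lie below 0 with FAC (median -0.65) and above 0 with either scavenger against FAC (medians 0.96 and 0.65).

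Genes that serve the Aifm2 reaction by making or reducing coenzyme Q (16 tested) were lowered by FAC in 5 cases and raised in 3. Coq8a, a kinase-like regulator of coenzyme Q synthesis, fell by 63.4% with FAC (-1.45, SE 0.105, edgeR adjusted p = 1.86e-08) from 55.0 CPM to 20.1 CPM in the mean of 3 libraries. It rose over FAC by 1.06 with liproxstatin-1 and 1.25 with Mito-TEMPO. Nqo1, another quinone reductase, held 7.01 to 10.9 CPM in control cells and 11.9 to 12.7 with FAC, against 32.1 to 34.0 in the Lip-1+FAC libraries and 25.8 to 27.0 in those of MT+FAC. Its rise with FAC, 0.43 (edgeR adjusted p = 0.00954), was lost without control replicate 1 (0.28), and those over FAC were 1.42 and 1.11. Unlike Coq8a, Nqo1 was therefore higher with a scavenger than in either control or FAC. Coq3 fell with FAC by -0.57, and Coq8b, whose exons are overlapped by other annotated genes over 10.88% of their length, was lower than in FAC with either scavenger (-0.71 and -0.74). In all, 6 genes of this role rose over FAC in each scavenger group, with 1 and 2 falling.

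Of the 6 genes that make or recycle tetrahydrobiopterin after Gch1, Pts and Pcbd1 were called and the others, Spr, Qdpr and Gchfr among them, were not, in FAC against control and in both scavenger groups against FAC. Pts, the enzyme of the step after Gch1, read 16.5 ± 0.328 CPM (SD, n = 3) in control and 11.7 ± 0.229 in FAC, a change of -0.49 (SE 0.0989, edgeR adjusted p = 0.000753). Pcbd1, which recycles the cofactor, changed by -0.59 (edgeR adjusted p = 2.76e-05). Both therefore moved with FAC in the direction opposite to Gch1. Over FAC, Pts rose by 0.68 and 0.66 and Pcbd1 by 0.50 and 0.52 in Lip-1+FAC and MT+FAC (0.83 and 0.84 with GC and length offsets). Neither was called against control in either scavenger group. Gchfr, the feedback regulator of Gch1, changed by -0.23 with FAC (edgeR adjusted p = 0.314).

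Among the 7 tested genes for selenocysteine incorporation, on which translation of Gpx4 depends, 4 fell and 1 rose with FAC. Sephs2, which makes selenophosphate, read 337 to 375 CPM in control and 240 to 269 in FAC (-0.51, SE 0.0686, edgeR adjusted p = 1.55e-05), and rose over FAC by 0.86 with liproxstatin-1 and 0.51 with Mito-TEMPO. An annotated gene overlaps 36.38% of its exons, so its counts are uncertain. Pstk, with 58.78% overlap, changed by -0.46 with FAC, but this was 0.04 when the stranded columns were summed and -0.32, not called, without FAC replicate 1. Lrp8, a receptor that takes up selenoprotein P, went the other way, from 11.1 to 13.6 CPM in control to 28.0 to 33.8 in FAC (1.36, SE 0.107, edgeR adjusted p = 3.77e-08). It was lower than in FAC by -0.52 in MT+FAC. Sepsecs rose over FAC in both scavenger groups (0.44 and 0.48) and so did Eefsec (0.37 and 0.28), which shares 311 bases with the overlapping gene Gm44264.

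Sterol genes around 7-dehydrocholesterol, a sterol that itself traps lipid radicals, fell in 3 of 4 cases with FAC. Dhcr7, which consumes it, changed by -0.84 (edgeR adjusted p = 1.01e-05) and Ebp by -0.51 (edgeR adjusted p = 2.17e-06). All 4 rose over FAC in Lip-1+FAC, with Dhcr7 at 1.37 and Sc5d, which makes the sterol, at 0.71. The value for Ebp, 0.17, was not called under 6 alternatives (0.13 to 0.17), 3 of them the omission of FAC replicate 2 (0.13) or Lip-1+FAC replicate 2 or 3 (0.16 each). In MT+FAC 3 rose, with Dhcr7 at 1.01 and Sc5d at 0.29 (0.18 with GC and length offsets).

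In the roles next to Acsl4 and Lpcat3, Elovl2, Pla2g6 and Elovl5, which elongate or release polyunsaturated fatty acids, fell with FAC (-0.42, -0.38 and -0.28, the last -0.17 with GC and length offsets). The desaturase Fads1 was the 1 gene of this role called higher with FAC (0.19, lost at 0.12 without FAC replicate 3, 0.19 without control replicate 2 and 0.15 without control replicate 3), and Fads2 was at 0.23 (edgeR adjusted p = 0.121), with FAC and control libraries apart for both. Fads2 and Fads1 were lower than in FAC with liproxstatin-1 (-0.95 and -0.48) and Mito-TEMPO (-0.82 and -0.51), and Pla2g6 was higher (0.30, or 0.46 with the offsets, and 0.41). Of the genes beside Acsl3, the stearoyl-CoA desaturase Scd2 had the largest change of all related genes. It read 10.9 to 13.2 CPM in control cells and 5.63 to 6.47 with FAC, against 38.9 to 40.9 in the Lip-1+FAC libraries and 21.1 to 25.2 in those of MT+FAC. It changed by -1.01 with FAC (edgeR adjusted p = 1.34e-06) and over FAC by 2.70 (edgeR adjusted p = 1.67e-11) and 1.92 (edgeR adjusted p = 2.07e-09). Acsl1 and Acsl5 fell with FAC (-0.56 and -0.21, the latter lost at -0.18 without FAC replicate 2), and both were higher than in FAC in the scavenger groups, Acsl5 by 0.56 and 0.50 and Acsl1 by 0.30 and 0.28. Scd2 shares 95.5% of 623 aligned bases with Scd1, so its counts are uncertain. Other annotated genes also overlap exons of Acsl1 (9.91% of their length), Acsl5 (8.31%), Coq8a (6.91%) and Qdpr (18.57%). Mboat2, at no more than 2.18 CPM, was lower in Lip-1+FAC than in FAC by -1.54, a call lost at -1.33 without Lip-1+FAC replicate 1.

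Other peroxidation catalysts and defence enzymes gave mixed directions. Nox4, an NADPH oxidase, fell with FAC by -0.70 and was higher than in FAC with either scavenger (0.73 and 0.70), the reverse of Por. Its FAC libraries ranged from 71.2 to 106 CPM, all below the control libraries. Cyb5b, a cytochrome b5 of the outer mitochondrial membrane, fell with FAC by -0.20, not called with GC and length offsets (-0.12), and rose over FAC by 0.50 and 0.32. The aldehyde dehydrogenase Aldh3a2 fell with FAC by -0.79 (edgeR adjusted p = 5.23e-08) and rose over FAC by 1.24 and 1.11, and Aldh1a1 rose over FAC by 0.93 in each scavenger group. Gsta4, which conjugates 4-hydroxynonenal, rose with FAC by 0.94 (edgeR adjusted p = 3.58e-06) and was still above control by 0.88 and 0.57 in Lip-1+FAC and MT+FAC. Akr1b8, at no more than 1.07 CPM, rose with FAC by 1.54, a call lost at 1.11 without control replicate 1; its similar gene Akr1b10 (95.6% identity over 250 bases) makes its counts uncertain. Mgst3 rose over FAC by 0.87 and 0.72.

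Of the transcripts often used as signs of ferroptosis, 1 rose and 1 fell with FAC. Chac1, a glutathione-degrading enzyme, rose with FAC by 0.87 (edgeR adjusted p = 7.57e-07), from 32.0 to 39.8 CPM in control to 59.7 to 68.0, and was lower than in FAC with either scavenger (-0.72 and -0.44, or -0.46 and -0.26 with GC and length offsets). Tfrc, the transferrin receptor, whose mRNA is destabilised when cellular iron is high, fell by -1.42 with FAC (edgeR adjusted p = 7.63e-08). Against FAC it was lower still with Mito-TEMPO (-0.48, edgeR adjusted p = 0.00382) and not called with liproxstatin-1 (-0.28, edgeR adjusted p = 0.0673). It stayed under control in Lip-1+FAC (-1.71) and MT+FAC (-1.91). Ptgs2 did not pass the filter, with 0 to 21 reads a library. Of the 5 membrane repair and rupture genes, Chmp4b, an ESCRT-III subunit, rose with FAC by 0.35 (edgeR adjusted p = 0.017), lost without control replicate 2 (0.33) or 3 (0.27). It was lower than in FAC by -0.52 and -0.46 with the scavengers.

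Between the scavengers, 4 of the 74 related genes were called, all lower in MT+FAC than in Lip-1+FAC, where 0.879% of all genes were called lower. Scd2 differed by -0.79 (edgeR adjusted p = 0.000313), Lrp8 by -0.62 (edgeR adjusted p = 0.00329), Sc5d by -0.43 (edgeR adjusted p = 0.00203) and Sephs2 by -0.35 (edgeR adjusted p = 0.0149). The last was lost without Lip-1+FAC replicate 2 (-0.36) or 3 (-0.32) or MT+FAC replicate 2 (-0.31) or 3 (-0.32). Among the members Acsl3, described above, showed the same direction.

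Over the 12 libraries, the protein-coding genes whose log2 levels were most like those of each member were found among 8999 genes. These correlations are descriptive, since libraries of a group share their treatment. Aifm2 was most like Rnpep (Pearson r = 0.99), Acsl3 most like Lrp8 (0.98), Gch1 most like Sqstm1 (0.97), and Por most like Smox, Onecut2 and Shmt2 (0.98 each). Gpx4 was most like Sod2 (0.93) and Dhodh most like Oasl1 (0.92). Pebp1 was most like Taf10, Cox8a and Dctn3 (0.98 each), Cyb5r1 most like Cdkn2aip and Atad3a (0.93 each), Acsl4 most like Maco1 (0.90) and Lpcat3 most like Nat8f2 (0.86).

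RefSeq promoter windows of GRCm38.p6, 250 bases before to 50 after a start, were found for 9 of the 10 members (12 windows, 4 of them for Gpx4, and none matched for Dhodh). A search on both strands for TGACNNNGC, the core of the antioxidant response element, matched none of the 12 windows and 12.4% of all 32851 windows. TCACNCCAC (sterol response element, 1.24% of all windows), CACGTG (E-box, 7.15%) and TGATGNAA (C/EBP-ATF element core, 3.97%) also matched none of the 12. TATAAA (13.6% of all windows) was found once, on the minus strand 188 bases before the start of Gch1. Absence of a match says only that these letters are not in these windows.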

How the data were processed

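The authors deposited unnormalized whole-number read counts for each gene, 1 file for each of the 12 libraries. Per the labels' protocols, cDNA was amplified from 10 ng of total RNA by SMART-Seq v4 and tagmented (Nextera XT), and reads were paired, 100 nt long. Per the submitters' processing notes the aligner was STAR and the build GRCm38; the version and annotation are not given in the sources used here. The unstranded column was used. File lines naming no gene (unmapped, multimapping, no feature, ambiguous) held the reads outside the 75.8% to 81.2% assigned and entered neither library sizes nor tests. Of 55487 identifiers, 55227 were named from GENCODE M21.

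All 12 libraries were fitted with 4 group means (edgeR 4.0.16, R 4.3.3, filterByExpr, TMM, robust quasi-likelihood F test, two-sided, adjusted over 13535 genes, threshold 0.05). The common biological coefficient of variation was 9.71%. CPM are counts scaled to the TMM library size and RPKM divides these by the joined length of all annotated exons of a gene. The protocol names no molecular identifiers, so limits on reads cover counting error only. Copies were searched with blastn 2.17.0+ at 95% identity over 100 bases or more.

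The 10 genes, the list of 85 related genes and the markers were chosen with earlier results of these data known. Named are all 10 genes, up to 3 called related genes with the largest change per role and comparison, and the 3 genes most like each member (mean CPM of at least 5, prior count 2), of which those with the highest r are printed. Other genes named (the uncalled Spr, Qdpr and Gchfr, genes below the filter, and overlapping genes or copies) were added after their values were seen. Alternatives were DESeq2 1.42.0, RLE and upper-quartile scaling, no filter, a mean CPM of at least 5, the compared libraries alone, a replicate block, summed stranded columns, thinning to the shallowest library, offsets for GC content and length (mgcv 1.9.3) and omission of each library. Adding near-identical copies was chosen after seeing the data. When the fit was tested on simulated data, the share of false calls lay above the threshold and many changes of the smaller simulated size were missed. Some genes of the related list are counted but not reported by name here.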

Additional observations from a re-analysis of the deposited data

Results flagged for a closer look

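The effects of the 2 scavengers, each taken against FAC, differed by the direct test (edgeR, adjusted over all genes tested) for 1 of the 10 genes and 4 related genes. Mito-TEMPO minus liproxstatin-1 was -0.28 on the log2 scale for Acsl3, -0.79 for Scd2, -0.43 for Sc5d, -0.35 for Sephs2 and -0.62 for Lrp8. In each of the 5 genes all 3 MT+FAC libraries were below all 3 Lip-1+FAC libraries. The calls of Scd2, Sc5d and Lrp8 held under every alternative, those of Acsl3 and Sephs2 were lost in 5 and 4 of the 6 omissions of a library.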

How the results depend on the processing

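Of 1020 recomputed values of the 10 genes, 928 kept direction and call, 49 lost the call, 8 gained it and 35 changed sign, none of the latter called. With GC and length offsets, 3 of 10 genes were called in Lip-1+FAC against FAC (5 as reported). In MT+FAC against Lip-1+FAC the count was 2 with no filter and 2 with the compared libraries alone (1 as reported); for related genes it was 8 with DESeq2, 9 with no filter and 8 with the compared libraries (4 as reported), and for all genes 465, 477 and 312 (182 as reported). The cause was not tested, other than that no filter and the compared libraries alone change the genes or libraries fitted. Omitting a library gave 3 to 5 called members in Lip-1+FAC against FAC, 0 to 1 in MT+FAC against Lip-1+FAC (74 to 156 over all genes), 5 to 7 in Lip-1+FAC against control and 3 to 5 in MT+FAC against control.

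Values that changed sign lay near 0. For Pebp1 in FAC against control they were 0.01 (DESeq2, offsets, RLE, no filter, compared libraries alone), 0.00097 (mean CPM of at least 5), 0.0014 (copies added), 0.0031 (stranded columns summed) and -0.05 to 0.04 with a library omitted (0.04 without FAC replicate 1 or control replicate 3). In Lip-1+FAC against FAC, Acsl3 was -0.07 with offsets, and Lpcat3 was -0.0014 (DESeq2), -0.0019 (RLE), -0.01 (mean CPM of at least 5), -0.0032 (compared libraries alone) and -0.02 to 0.04 with a library omitted (-0.02 without the second FAC or the third Lip-1+FAC replicate). In MT+FAC against FAC, Acsl4 was -0.07 (offsets), -0.0045 (mean CPM of at least 5), -0.01 (stranded columns summed), and -0.05 to 0.04 with a library omitted (-0.03 and -0.05 without replicate 3 of FAC and MT+FAC). With a library omitted, Lpcat3 ran from -0.05 to 0.01 (without FAC replicate 3) and Gch1 from -0.11 to 0.04 (without FAC replicate 2). With offsets they were -0.06 and -0.14, without a change of sign. In MT+FAC against Lip-1+FAC, Pebp1 was -0.08 (offsets), -0.00022 (compared libraries alone), -0.02 (stranded columns summed), and -0.07 to 0.04 with a library omitted (-0.07 and -0.01 without replicate 3 of Lip-1+FAC and MT+FAC). Por was -0.03 (offsets) and, with a library omitted, -0.02 (without MT+FAC replicate 2) to 0.12. Cyb5r1 ran from -0.09 to 0.01, with 0.01 and 0.0036 without MT+FAC replicates 1 and 3. Against control, Lpcat3 was 0.03 in Lip-1+FAC with offsets. Gpx4 in MT+FAC was -0.01 (without control replicate 1) to 0.08 with a library omitted, and 0.21 with offsets, without a change of sign. Among related genes, Pstk was 0.04 in FAC and 0.05 in Lip-1+FAC against control with the stranded columns summed.

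Correlations of deviations from the group means showed no pairing by replicate number. They ran from -0.249 to 0.164 over 18 same-numbered pairs, 3 of which exceeded 0.1, and from -0.196 to 0.221 over the other pairs. With 3 libraries a group, such correlations cannot exclude pairing. A replicate block gave 5, 4, 4, 1, 7 and 5 called members in the 6 comparisons, in the order of the plot of changes, and lost Gch1 in Lip-1+FAC against FAC (0.18) and Aifm2 in Lip-1+FAC against control (-0.17). Each of the 10 genes had at least 659 reads in every library, and thinning to the shallowest library lost the same 2 calls, at 0.18 (edgeR adjusted p = 0.054) and -0.17 (edgeR adjusted p = 0.0742).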
